A study of Mus musculus with 5 samples.

Results

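The 8 genes described here encode proteins that move chloride across kidney cell membranes or that serve such channels: Cftr, Ano1, Ano6, Ano10, Bsnd, Slc12a2, Lrrc8a and Clcn3. They were taken by symbol, and all 8 were found among the 23997 rows of a table of transcript levels from whole mouse kidneys. The table has 5 libraries from mice aged 8 weeks. The 3 controls (control 0, 1 and 2) carry the genotype label uninduced control, and the 2 others (knockout 0 and 1) carry the genotype label Pkd1 knockout. The titles of the mutant samples read SKO and the design text of the series reads PkdTKO, and the labels explain neither name. The agent of induction, the Cre driver, the cells it acts in, the strain and the number of animals behind each library were not stated in the labels used here. Every p-value therefore measures only the spread between these libraries, which may be technical. Levels are FPKM, which are fragments counted per kilobase of a transcript and scaled to each library's mapped fragments, so they can be compared between genes.

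Pkd1 encodes polycystin-1, and its loss turns tubules into fluid-filled cysts. In cyst epithelium, chloride is loaded into the cell across the basolateral membrane by the sodium, potassium and chloride cotransporter NKCC1, the product of Slc12a2. It leaves across the apical membrane through CFTR, which cyclic AMP and protein kinase A open, or through the calcium-activated channel anoctamin 1 (Ano1, also called TMEM16A), and sodium and water follow. Chloride absorption in the loop of Henle and the distal nephron uses other proteins, among them barttin, the product of Bsnd, a subunit that basolateral chloride channels need to reach the membrane.

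For Pkd1 itself the controls read 3.22, 3.51 and 3.49 FPKM, against 2.72 for knockout 0 and 3.60 for knockout 1, so its whole-gene level does not check either label. The directions below are those of the libraries labelled as knockouts. The sex of the RNA was not the same in the groups. Xist, which is made in females, was between 0.0222 and 0.0275 in the controls, against 30.8 for knockout 0 and 80.3 for knockout 1, while the Y-linked Ddx3y was between 17.8 and 18.6 in the controls, against 7.30 for knockout 0 and 0.00194 for knockout 1. Each of the 4 Y-linked genes listed stood at 36.7% to 41.3% of its control mean in knockout 0, so that library held both Xist and Y-linked RNA, as neither the controls nor knockout 1 did at a like level. The labels do not say how many animals gave knockout 0, and whether it is a mixture was not tested. Sex and genotype cannot be told apart in any difference below. Knockout 0 also stood apart in injury and immune markers. The summed FPKM of 6 markers of injured tubules was 135.2 to 159.4 in the controls, against 634.5 for knockout 0 and 98.3 for knockout 1. That of 7 macrophage markers was 89.1 to 99.2, 376.9 and 129.97. Clu was the largest part of the injury sum in every library, and control values of this gene ran from 123.3 to 149.6 FPKM. It read 325.4 for knockout 0 but only 86.3 for knockout 1. Single injury markers went both ways in knockout 1. Krt20, Vcam1 and Sox9 were above every control there, Havcr1 and Clu were below, and Lcn2 lay within the control range. The sum alone therefore does not show less injury in knockout 1. In whole-kidney RNA, fewer cells of a type and less RNA per cell cannot be told apart.

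In the comparison of both knockout libraries with the controls, none of the 8 genes passed the test across all genes (limma, Benjamini-Hochberg adjusted p under 0.05). Of 12640 rows tested, 6.34% passed (2.73% higher and 3.62% lower). All 8 genes had a mean FPKM of at least 1 and were tested. At an unadjusted p under 0.05, 3 of the 8 differed, against 29.1% of all rows: Cftr was higher, and Slc12a2 and Clcn3 were lower. The groups did not overlap in 4 of the 8, against 48.2% of all rows. Cftr and Ano10 lay above every control in both knockout libraries, as 21.9% of all rows did, and Slc12a2 and Clcn3 below every control in both, as 26.3% did. The median fitted log2 fold change of the 8 was -0.11, beside -0.02 over all tested rows. These counts are close to the background of the table.

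**Figure D1:**
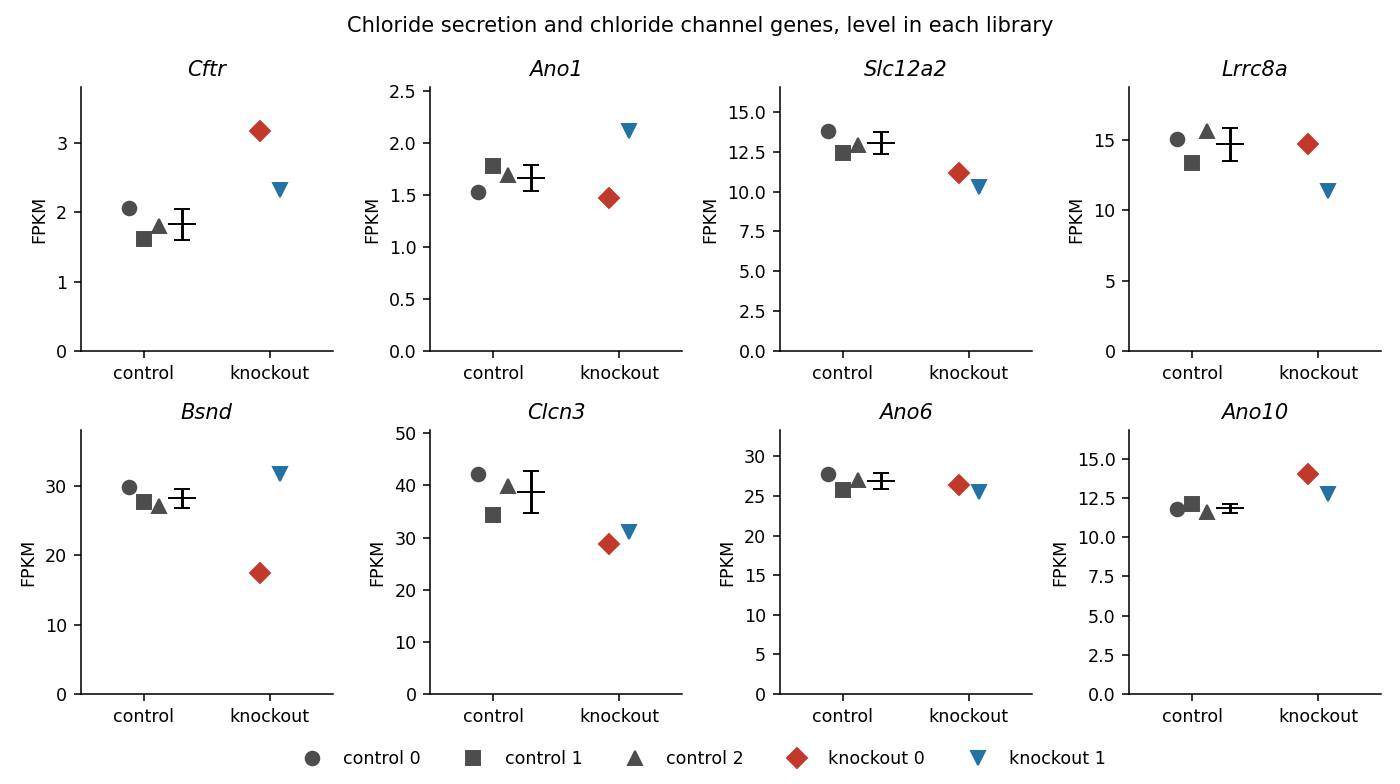
FPKM of each gene in each library, with the controls at left, the libraries labelled knockout at right, and the control mean with its SD (n = 3) as a bar. Cftr and Ano10 were higher in both knockout libraries than in every control, Slc12a2 and Clcn3 were lower in both, and Bsnd was far lower in knockout 0 (17.5) than in knockout 1 (31.7).

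By control mean, the order of levels ran from Clcn3, at 38.7 ± 4.04 FPKM (SD, n = 3), through Bsnd (28.3 ± 1.38), Ano6 (26.8 ± 1.02), Lrrc8a (14.7 ± 1.18), Slc12a2 (13.05 ± 0.683) and Ano10 (11.8 ± 0.260) to Cftr (1.83 ± 0.228) and Ano1 (1.66 ± 0.127). Among neighbours in that order, the controls overlapped between Bsnd and Ano6, between Lrrc8a and Slc12a2 and between Cftr and Ano1. The apical secretory channels Cftr and Ano1 were thus the least abundant of the 8. Their control means lay above only 9.81% and 8.62% of the tested rows, whereas that of Clcn3 lay above 80.9%.

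**Figure D2:**
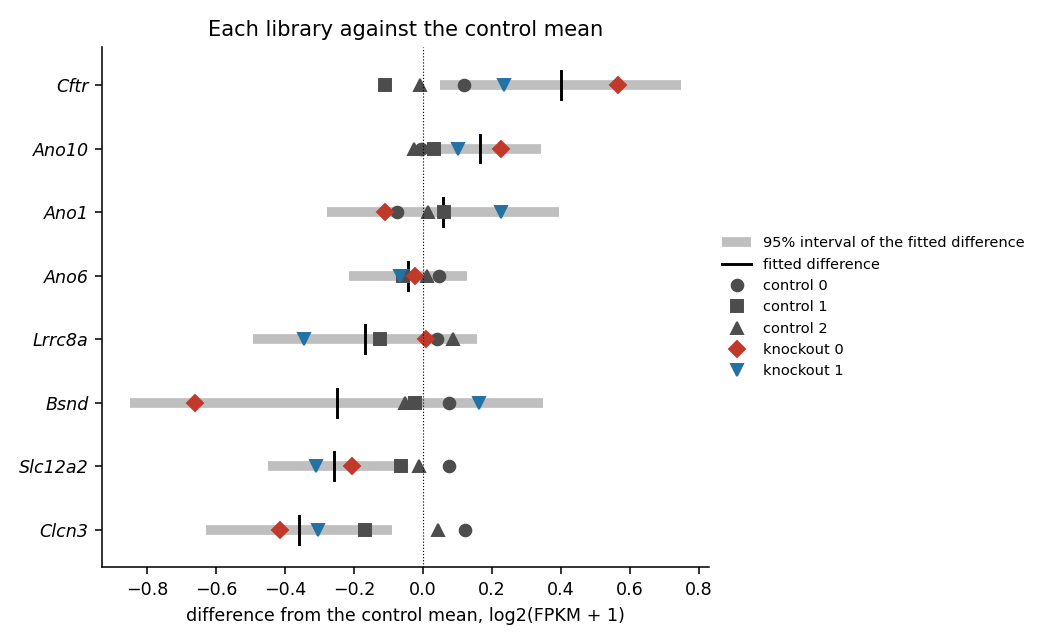
Difference of each library from the control mean on the log2(FPKM + 1) scale, with the fitted difference between the groups (black tick) and its 95% interval (grey bar). The intervals of Cftr, Slc12a2 and Clcn3 leave out 0 before adjustment for the number of genes tested, and that of Bsnd is the widest.

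For Cftr, the apical channel of cyst fluid secretion, the controls (0, 1 and 2) read 2.07, 1.61 and 1.80 FPKM, against 3.17 for knockout 0 and 2.32 for knockout 1. Both knockout libraries exceeded the highest control, knockout 1 by a narrow margin. The fitted log2 difference was 0.40 with an SE of 0.139 and a 95% interval from 0.05 to 0.75 (limma adjusted p = 0.137). An exact permutation test gave p = 0.1, the lowest possible with 3 and 2 libraries. Knockout 0 stood at 174% and knockout 1 at 127% of the control mean. Set alone against the controls, knockout 0 gave a log2 difference of 0.56 that passed (limma adjusted p = 0.0363, where 20.6% of all rows passed, 11.5% higher), and knockout 1 gave 0.23 that did not (adjusted p = 0.2203, where 8.34% passed). Such a fit takes the lone knockout library to vary as the controls do. In knockout 0, where Cftr was highest, 6 of 6 injury markers and 7 of 7 macrophage markers were above every control. In knockout 1, 7 of 7 macrophage markers were above every control too, while 3 injury markers were above and 2 below. Over all tested rows, 34.2% were above every control in knockout 0, and 38.4% above and 38.5% below in knockout 1. The part of macrophages and injured tubules in the Cftr value was not tested. Cftr (ENSMUSG00000041301.15) is found at mm10 chromosome 6, 18170687 to 18322768, on the plus strand.

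Slc12a2, the basolateral cotransporter that loads cells with chloride, went the other way. The controls read 13.8, 12.4 and 12.9 FPKM, against 11.2 for knockout 0 and 10.3 for knockout 1. Both knockout libraries were below the lowest control, by a smaller step in knockout 0, and stood at 85.6% and 79.0% of the control mean. On the log2 scale the fit gave -0.26 with an SE of 0.0764 and a 95% interval from -0.45 to -0.07 (limma adjusted p = 0.103), with an exact permutation p of 0.1. Neither library alone passed against the controls (limma adjusted p = 0.149 for knockout 0 and 0.0875 for knockout 1). The ratio of Cftr to Slc12a2 FPKM, a measure taken after the values of both had been seen, was 0.130 to 0.1498 in the controls, against 0.284 for knockout 0 and 0.225 for knockout 1. Slc12a2 (ENSMUSG00000024597.11) is found at mm10 chromosome 18, 57878678 to 57946821, on the plus strand.

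For Ano1, the calcium-activated chloride channel, the controls read 1.53, 1.78 and 1.69 FPKM, against 1.47 for knockout 0 and 2.11 for knockout 1. The knockout libraries lay on opposite sides of the controls, knockout 0 just below the lowest and knockout 1 above the highest. The fit gave a log2 difference of 0.06, SE 0.134, with an interval of -0.28 to 0.40 (limma adjusted p = 0.809), and its sign turned after quantile normalization (-0.0596) and without knockout 1 (-0.11). Cftr was therefore 2.16 times the level of Ano1 in knockout 0 and 1.097 times in knockout 1, where the controls ran from 0.907 to 1.35. Ano1 (ENSMUSG00000031075.18) is found at mm10 chromosome 7, 144588549 to 144751974, on the minus strand.

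Ano6, a calcium-activated phospholipid scramblase that also conducts ions, was the most abundant anoctamin and hardly varied. The controls read 27.7, 25.7 and 27.0 FPKM, against 26.4 for knockout 0 and 25.6 for knockout 1. Knockout 0 lay within the range of the controls and knockout 1 just below it. Its fitted log2 difference of -0.04 had an SE of 0.0683 and an interval from -0.22 to 0.13 (limma adjusted p = 0.705), and rescaling to TPM made it positive (0.0348). Ano10, an anoctamin whose human counterpart is mutated in a form of cerebellar ataxia, read 11.8, 12.1 and 11.6 FPKM in the controls, against 14.01 for knockout 0 and 12.8 for knockout 1. Both knockout libraries were above every control, at 118% and 108% of the control mean. For Ano10 the fit gave 0.16 on the log2 scale, SE 0.0703, with an interval of -0.01 to 0.34 (limma adjusted p = 0.193) and an exact permutation p of 0.1. Ano6 (ENSMUSG00000064210.7) is found at mm10 chromosome 15, 95790843 to 95974751, on the plus strand, and Ano10 (ENSMUSG00000037949.8) on chromosome 9 from 122175874 to 122294423, minus strand.

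Over the whole anoctamin family, the summed FPKM of 10 genes was 48.5 to 49.7 in the controls, against 51.7 for knockout 0 and 51.3 for knockout 1. Ano6 made up 51.7% to 57.1% of the controls' sum, against 51.1% for knockout 0 and 49.8% for knockout 1. Ano10 made up 23.6% to 24.4%, then 27.1% and 24.9%. Ano1 made up 3.15% to 3.57%, then 2.84% and 4.12%. Ano1 was thus a small part of the family's transcripts in every library. Ano9, which did not pass either (limma adjusted p = 0.107), read 2.27, 2.72 and 2.002 FPKM in the controls, against 3.75 and 3.16 in the knockout libraries.

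**Figure D3:**
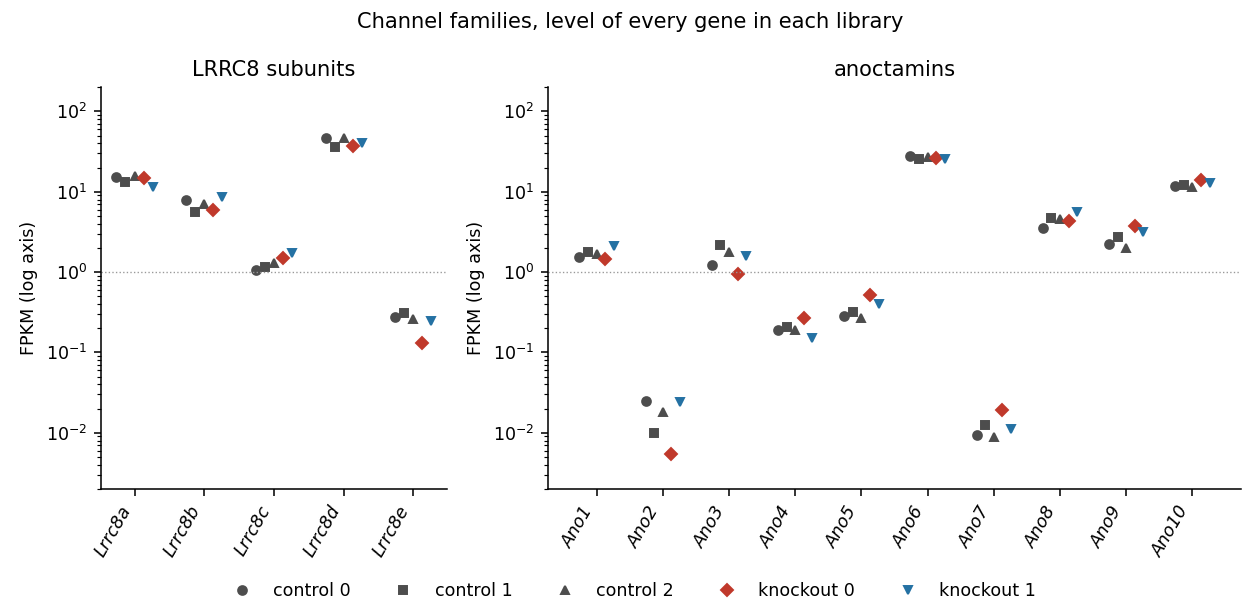
FPKM of every LRRC8 and anoctamin gene in the table, on a log axis, in each library. The dotted line marks an FPKM of 1. Lrrc8d and Ano6 were the most abundant of their families in every library.

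Lrrc8a encodes the obligatory subunit of the volume-regulated anion channel, which opens when cells swell and lets chloride and small organic solutes out. The controls read 15.1, 13.3 and 15.6 FPKM, against 14.7 for knockout 0 and 11.3 for knockout 1. Knockout 0 lay among the controls and knockout 1 below them. With both libraries the log2 difference was -0.17, SE 0.1295, with an interval of -0.49 to 0.16 (limma adjusted p = 0.436), and with knockout 0 alone it was 0.00831. The value is uncertain in what it covers. In GENCODE M21, 68.3% of the exonic bases of Lrrc8a (ENSMUSG00000007476.18, mm10 chromosome 2, 30237715 to 30263790, plus strand) lie under exons of other annotated genes, mainly Gm28035, which has no row in the table.

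The LRRC8A protein forms channels with its relatives, and the makeup sets what passes through. Lrrc8d, whose product favours passage of organic solutes, was the most abundant, at 43.1 ± 5.90 FPKM (SD, n = 3) in the controls, against 36.7 for knockout 0 and 40.8 for knockout 1. It gave 64.1% to 65.8% of the summed Lrrc8 level in the controls and 62.3% and 65.0% in the knockout libraries. Lrrc8b was at 6.83 ± 1.17, 5.88 and 8.65, and Lrrc8c at 1.17 ± 0.1201, 1.51 and 1.75. Lrrc8c was above every control in both knockout libraries without passing (limma adjusted p = 0.174). Lrrc8e, at 0.282 ± 0.0234, 0.129 and 0.246, fell under the filter on low values and was not tested. The family's summed FPKM was 56.7 to 70.9 in the controls, against 58.99 for knockout 0 and 62.7 for knockout 1, inside the range of the controls.

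Bsnd showed the widest split between the knockout libraries. The controls read 29.8, 27.8 and 27.2 FPKM, against 17.5 for knockout 0 and 31.7 for knockout 1. Knockout 0 was far below every control, at 61.8% of the control mean, and knockout 1 was slightly above every control, at 112%. The gap between the knockout libraries, -0.82 on the log2 scale for knockout 0 minus knockout 1, was larger than that of 94.6% of the tested rows, whereas the controls spanned 0.13. Fitted to both, the log2 difference was -0.25, SE 0.239, with an interval of -0.85 to 0.35 (limma adjusted p = 0.532). Knockout 0 alone gave -0.66, which passed (limma adjusted p = 0.0139, where 9.09% of all rows passed as lower), and knockout 1 alone 0.16, which did not (adjusted p = 0.247). The difference between these libraries was not tested. Bsnd (ENSMUSG00000025418.7) is found at mm10 chromosome 4, 106483456 to 106492283, on the minus strand.

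Summed markers of the segments that make barttin were low beside it in knockout 0, and so were those of principal cells and urothelium. The summed FPKM of 5 markers of the thick ascending limb was 462.5 to 695.3 in the controls, against 297.3 for knockout 0 and 625.7 for knockout 1. In knockout 0, 3 of the 5 were below and 1 above every control, beside 43.9% and 34.2% of all tested rows. Umod, the remaining marker of that list, was listed at 0 in the 3 controls, against 784.3 FPKM for knockout 0 and 1144 for knockout 1. It is a main transcript of that segment in normal kidney, so the zeros may be failed estimates, and it was left out of the sum. Distal convoluted tubule markers (4 genes) were at 458.2 to 479.99, 236.1 and 401.1, and intercalated cell markers (6 genes) at 187.9 to 243.7, 114.9 and 169.4. All 4 and all 6 of these were below every control in knockout 0, where 43.9% of all tested rows were. Principal cell markers (6 genes, all below every control in knockout 0) summed to 536.4 to 611.6 in the controls, against 447.9 for knockout 0 and 586.2 for knockout 1. Urothelium markers (5 genes, likewise all below) summed to 15.6 to 23.2, against 4.56 and 10.4. The sum of 4 proximal tubule markers, at 515.9 to 533.2 in the controls, was 479.4 in knockout 0 and 441.5 in knockout 1. It was below every control in both, but single markers went both ways. Slc22a6, the largest part of that sum, read 267.9 to 324.7 in the controls, against 245.6 for knockout 0 and 164.7 for knockout 1. Cubn was above every control in both, at 38.2 to 42.1 in the controls, against 50.9 and 61.1. Of the 4 markers, 1 was above and 2 below every control in knockout 0, and 2 above and 1 below in knockout 1. Lrp2 and Slc34a1, the remaining markers of that list, were listed at 0 in every library and were left out of the sum. Principal cell and urothelium markers were low in knockout 0 as well, while proximal tubule markers went both ways. The ratio of Bsnd to Slc12a1, the apical cotransporter of the thick ascending limb, was 0.102 to 0.142 in the controls, against 0.153 for knockout 0 and 0.108 for knockout 1. The part of these cells in the Bsnd value was not tested.

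**Figure D4:**
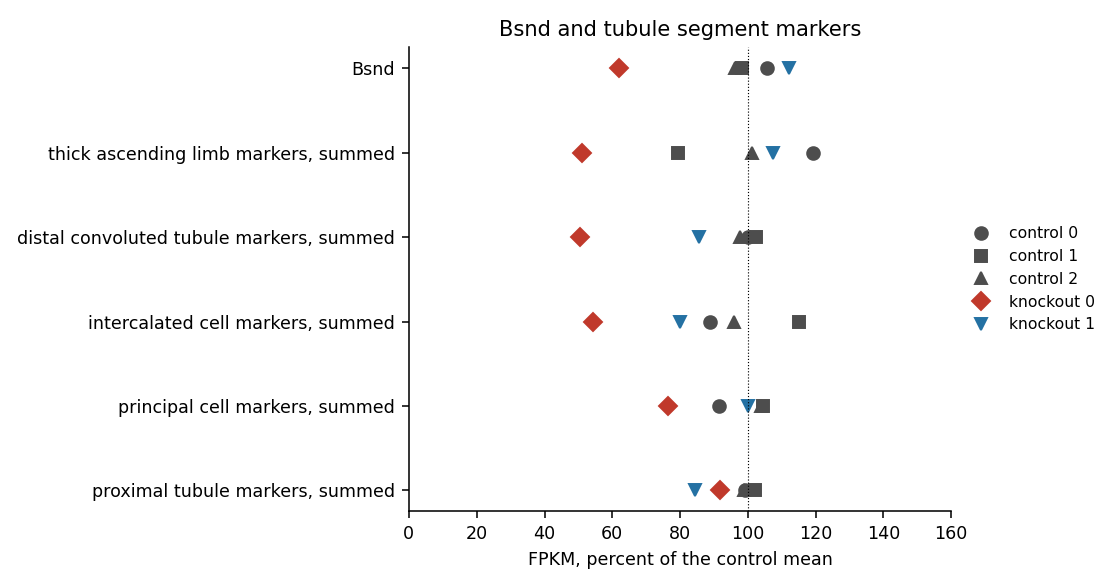
FPKM of Bsnd and of summed segment markers in each library, as a percent of the control mean. Knockout 0 lies below every control in each row, at 61.8% for Bsnd and 51.0% for the thick ascending limb, while knockout 1 stands at 112% and 107% in these rows. Slc22a6 is the largest part of the proximal tubule sum, whose single markers went both ways.

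Clcn3 encodes ClC-3, a chloride and proton exchanger of endosomes, and was the most abundant of the 8 genes in the controls. The controls read 42.1, 34.3 and 39.8 FPKM, against 28.7 for knockout 0 and 31.1 for knockout 1. Both knockout libraries were below every control, at 74.1% and 80.2% of the control mean, although control 1 was close to knockout 1. The fit gave -0.36 on the log2 scale, SE 0.1076, with an interval of -0.63 to -0.09 (limma adjusted p = 0.106), and an exact permutation test gave p = 0.2. Neither library alone passed (limma adjusted p = 0.0983 for knockout 0 and 0.196 for knockout 1). Clcn3 (ENSMUSG00000004319.15) is found at mm10 chromosome 8, 60910389 to 60983300, on the minus strand.

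Other genes of chloride transport were taken from 4 lists, with 79 symbols in all, of which 55 were tested. Of these, 2 rose, 1 fell and 52 did not pass (limma, adjusted p under 0.05), or 5.45% called beside 6.34% of all rows. Groups did not overlap in 18 (32.7%, against 48.2% of all rows). Slc26a1, a sulfate and anion exchanger of the proximal tubule, fell from 56.0 ± 1.80 FPKM (SD, n = 3) to 35.2 in knockout 0 and 34.0 in knockout 1 (log2 fold change -0.68, SE 0.0684, limma adjusted p = 0.0147). Slc12a4, the potassium and chloride cotransporter KCC1 that lowers cell chloride, rose from 5.36 ± 0.236 to 8.57 and 7.74 (log2 0.53, SE 0.078, limma adjusted p = 0.0302). Ezr, ezrin, which ties apical membrane proteins to actin and binds the scaffolds that hold CFTR, rose from 153.0 ± 2.26 to 218.1 and 195.3 (log2 0.43, SE 0.082, limma adjusted p = 0.0464). None of the 3 calls held with control 0 or control 2 left out (limma adjusted p from 0.1095 to 0.219), and only that of Slc26a1 held without control 1 (0.0464). The call of Ezr was also lost without knockout 0 (0.0614). With all 5 libraries kept, Ezr did not pass with no filter on low values (limma adjusted p = 0.0827), with median-of-ratios scaling (0.0523) or with the replicate number as a block (0.306), and Slc12a4 did not pass with no filter (0.0754) or with the block (0.269). Slc26a1 did not pass with the block either (0.196).

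**Figure D5:**
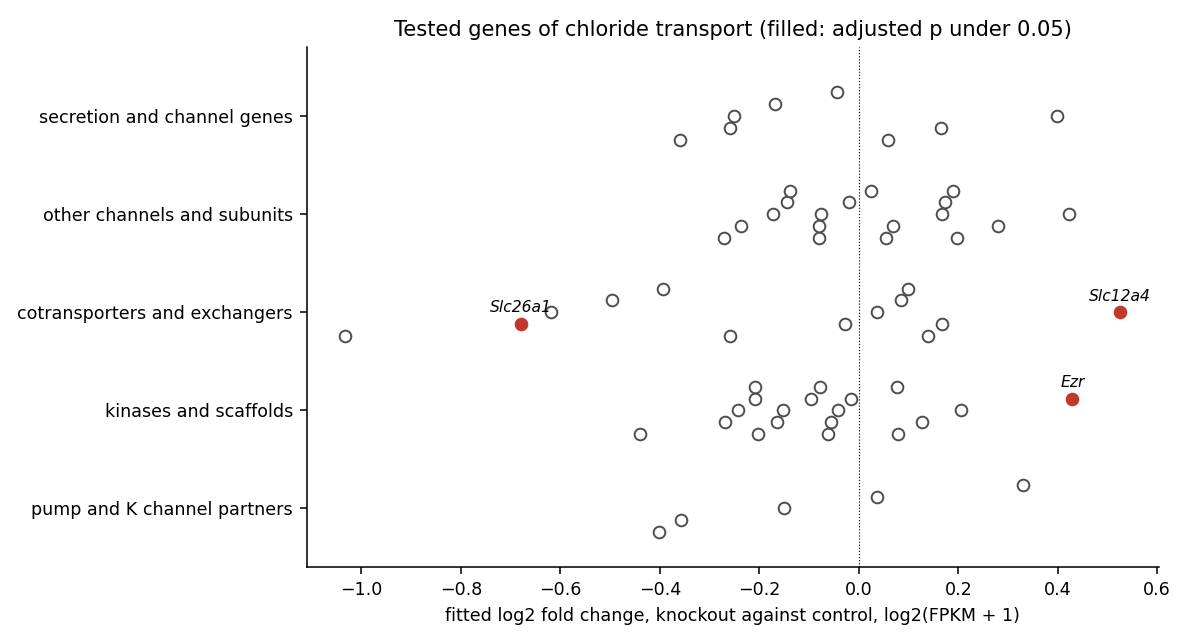
Fitted log2 fold change, knockout against control on the log2(FPKM + 1) scale, of each tested gene of chloride transport by list. Filled points passed the limma test across all genes. Slc26a1 at -0.68, Slc12a4 at 0.53 and Ezr at 0.43 did, and none of the 8 secretion and channel genes in the top row did.

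By list, 0 of 18 tested channels and channel subunits passed, and their median log2 fold change was 0.00. At an unadjusted limma p under 0.05, where 29.1% of all rows stood, 1 of them was higher and 0 were lower. Of 13 tested cotransporters and exchangers 1 rose and 1 fell (median -0.03), and at the unadjusted p 1 was higher and 5 were lower. Of 19 kinases and scaffolds 1 rose and 0 fell (median -0.08), with 1 higher and 1 lower at the unadjusted p. Of 5 sodium pump and potassium channel partners 0 passed (median -0.15), with 1 higher and 2 lower at the unadjusted p. Slc12a7, a relative of Slc12a4, was lower in both knockout libraries than in every control without passing, at 33.4 to 37.1 FPKM in the controls, against 28.2 for knockout 0 and 30.97 for knockout 1.

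The knockout libraries differed from each other over these lists as well. In knockout 0, 29 of the 55 genes were below and 9 above every control, and in knockout 1 17 were below and 25 above. Over all tested rows, 43.9% were below and 34.2% above every control in knockout 0, and 38.5% and 38.4% in knockout 1. Set alone against the controls, knockout 0 gave 10 calls among the 55 (18.2%, against 20.6% of all rows) and knockout 1 gave 2 (3.64%, against 8.34%). For 5 of the 8 secretion and channel genes, too, the gap between the knockout libraries exceeded the range of the controls, as it did in 57.2% of all rows.

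The genes whose pattern was most like that of each of the 8 were sought among 127 other tested genes of the lists used here, by the root mean square distance between their values in the 5 libraries on the log2(FPKM + 1) scale after subtraction of the control mean. For Cftr the nearest were Ezr (0.101) and the endothelial gene Cdh5 (0.123), and for Slc12a2 Cul3 (0.0642) and Slc9a3r1, a scaffold that binds CFTR (0.068). For Bsnd they were Cab39l (0.097) and Wnk1 (0.0992). For Clcn3 they were Pdzk1 (0.0742) and Slc12a7 (0.0777), and for Lrrc8a Ttyh2 (0.0485) and Slc9a3r1 (0.0753). Ano1 was nearest to Adcy6 (0.0571) and Scnn1g (0.0576), Ano6 to Clns1a (0.0318) and Gopc (0.0406), and Ano10 to Cd79b (0.0532) and Pecam1 (0.0641). The median distance to all 127 was between 0.268 for Ano6 and 0.441 for Cftr. A gene that hardly varied is near every other gene that hardly varied.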

How the data were processed

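Whole-kidney RNA was extracted with TRIzol and libraries were made from 1 µg with an Illumina mRNA kit, per the labels' protocols. The authors deposited FPKM, 1 column per library. Bcl2fastq and mm10 are named in the submitters' processing notes. How reads were aligned and quantified, with which annotation and strandedness, is not given in the sources used here. No column lacked a library (0 unmapped).

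No count test was run. Differences were taken on log2(FPKM + 1), a scale that understates changes of low genes, for the 12640 of 23997 rows whose mean FPKM reached 1. The test was limma 3.58.1 in R 4.3.3 (variance trend, two-sided), adjusted by Benjamini-Hochberg over all tested rows. A run on simulated data planted differences far larger than those of the 8 genes, so it does not show whether differences of their size would be found. For single genes an exact two-sided permutation test over all 10 assignments was run, whose smallest p is 0.1. Positions, lengths and overlaps came from GENCODE M21, of the same build (8 of 8 symbols matched). Python 3.11.15, numpy 2.4.6, pandas 2.3.3 and matplotlib 3.10.9 were used.

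FPKM do not state depth. Depth relative to control 0 was estimated from the commonest ratio between low FPKM values, which fall on steps of whole fragments. It was 1.09 in control 1, 0.669 in control 2, 0.570 in knockout 0 and 1.34 in knockout 1. Only 225 of 951, 80 of 787, 140 of 622 and 86 of 900 low rows, in that order, stood at that ratio, so the estimates are rough. If the smallest step is 1 fragment, Ano1, the lowest gene, rests on about 596 to 1970 fragments per library.

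The 8 genes and the lists were chosen with earlier results of these data known. The genes named were all 8, the subunit partners of Lrrc8a, up to 4 passing genes per list, and the 2 nearest in pattern. Some genes that the rule takes are left out of the text. Ratios, family shares, Ano9, Slc12a7 and the untested genes named in the closing section were chosen after their values were seen. Alternatives tried were another pseudocount (0.1), another filter (none, or a mean FPKM of 5), TPM, median-of-ratios or quantile scaling, no variance trend, robust variances, genes listed at 0 left out, the replicate number as a block, and each library left out in turn.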

Additional observations from a re-analysis of the deposited data

How the results depend on the processing

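None of the 8 genes passed in any of the 10 alternatives that kept all 5 libraries. With 1 library left out, 0 to 2 of the 8 passed, the 2 being Cftr (higher) and Bsnd (lower) without knockout 1. Of 118 fold changes of the 8 genes under 15 alternatives, 111 kept their direction and side of the threshold. The log2 fold change of Ano6 became 0.0348 when rescaled to TPM and that of Ano1 -0.0596 after quantile normalization, and with 1 library left out Bsnd ran from -0.66 to 0.16, Ano1 from -0.11 to 0.23 and Lrrc8a from -0.34 to 0.00831. The cause was not tested. The 3 other chloride genes that passed became 1 with no filter, where more rows were tested, 0 with the replicate block, and 0 to 10 with 1 library left out. Slc26a1 passed in 12, Slc12a4 in 10 and Ezr in 8 of the 15 alternatives, with adjusted p up to 0.196, 0.269 and 0.306. Of all genes 802 passed, 345 higher and 457 lower; 247 did with no filter (141 higher, 106 lower), 28 with the replicate block, 36 to 2599 with 1 library left out, and 720 when rescaled to TPM (454 higher, 266 lower). Replicate numbers 0 and 1 occur in both groups, but nothing in the labels ties same-numbered libraries together, so the block shares only a number. Both Cftr and Ano1 fell under the filter at a mean FPKM of at least 5 and have no value there. With 2 knockout libraries that differ in Xist and Y-linked levels, estimated depth and injury markers, their spread limits every comparison.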

Other observations

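Some genes of chloride transport under the filter on low values, picked after their values were seen, differed between the libraries and were not tested with limma. Kcnn4, a calcium-activated potassium channel that supports chloride secretion, read 0.377, 0.362 and 0.3298 FPKM in the controls, against 1.58 for knockout 0 and 0.453 for knockout 1. Kcne3, a subunit that keeps the potassium channel Kcnq1 open in secretory epithelia, read 0.732, 0.754 and 0.614 FPKM, against 1.60 for knockout 0 and 0.862 for knockout 1. Each knockout library exceeded the controls in both genes, knockout 0 by far. Kcnma1, a large-conductance potassium channel of the same list, went the other way, at 0.786, 0.538 and 0.643 FPKM in the controls, against 0.416 for knockout 0 and 0.417 for knockout 1. Best1, a bestrophin anion channel, read 0.502, 0.227 and 0.298 FPKM, against 0.106 for knockout 0 and 0.141 for knockout 1, both below every control. Its relative Best3 went the other way, at 0.243, 0.260 and 0.247 FPKM, against 0.304 for knockout 0 and 0.488 for knockout 1. Each of Kcnn4, Kcne3 and Best3 had an exact permutation p of 0.1, the lowest possible with 3 and 2 libraries. Kcnma1 and Best1 had an exact permutation p of 0.2 each. Because these genes were picked on their values, these p-values give no support for a difference. In each of these genes the groups did not overlap. The same held in 48.2% of all tested rows, a set that leaves these genes out because they fell under the filter.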
